A study of Mus musculus with 12 samples.

Results

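The genes described here are the nuclear genes of the mitochondrial respiratory chain and the ATP synthase. They were chosen by name, as all probe sets that the array annotation assigns to 1 gene with a symbol starting with Nduf, Uqcr, Atp5, Cox4i, Cox5, Cox6, Cox7 or Cox8, or equal to Sdha, Sdhb, Sdhc, Sdhd or Cycs. No measured value is part of this rule, which was set with earlier results of these data known. It gave 183 probe sets of 91 genes, out of 18193 genes with a probe set of their own, and each gene was read from its probe set of highest mean intensity over the 12 arrays. All 91 gene IDs matched RefSeq, with no change of symbol. The set held 6 core, 28 accessory and 8 assembly genes of complex I, 4 genes of complex II, 8 of complex III, the somatic cytochrome c gene Cycs, 19 genes of complex IV, and 5 genes of the F1 and 12 of the Fo and stalk parts of the ATP synthase. A mean intensity over 64 was reached by 84 genes, and the 7 at or under it were Ndufb4, Cox4i2, Cox6a2, Cox7a1, Cox7b2, Cox8b and Ndufa4l2. 10 further probe sets that name such a gene together with another gene were left out.

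The samples were CD4 single positive (SP) thymocytes of untreated C57BL/6 mice aged 6 to 8 weeks, taken from pooled thymi and sorted as CD4+CD8-CD25-NK1.1- cells. Surface Qa-2, 6C10 and CD69 parted them into 4 subsets. Cells without Qa-2 were SP1 where both 6C10 and CD69 were present, SP2 where CD69 alone was present and SP3 where neither was, and cells with Qa-2 but without 6C10 and CD69 were SP4, an order the study takes as the course of medullary maturation. Each subset had 3 arrays, labelled biological replicates 1 to 3. The study's text states that the SP4 gate can hold mature T cells that re-entered the thymus and precursors of NKT cells.

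Complexes I to IV pass electrons from NADH and succinate to oxygen and, except complex II, pump protons across the inner mitochondrial membrane. Complex III and complex IV are linked by the small carrier cytochrome c, and the ATP synthase uses the proton gradient to make ATP. A few subunits are encoded by mitochondrial DNA and all others by the nucleus, so the nuclear genes have to be expressed together for a complex to be built. Quiescent T cells rely largely on oxidative phosphorylation, whereas activated T cells raise glycolysis.

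The labelled cell type was checked against its defining markers. All 9 measured CD4 T cell genes (Cd4, Cd3d, Cd3e, Cd3g, Cd247, Cd2, Cd5, Zbtb7b and Gata3) had a mean over 64, and their summed intensity ranged from 15166 to 21112. The 10 measured genes of cortical double positive thymocytes, among them Rag1 and Cd8a, summed to between 729 in SP2 replicate 2 and 14670 in SP3 replicate 1. The 9 measured NKT and innate-like T cell genes summed to between 172 and 531 in the 9 arrays of SP1 to SP3. They summed to between 1684 and 2520 in SP4, where 6 of them were called higher than in SP1. Of the 9 activated or memory T cell genes, Ahnak was called higher in SP4 than in SP1, and 4 were once replicate number entered the fit as a block. Among all genes, 1.52% were called in this comparison in either direction, and 6.04% with the block. The median of the list was 0.76. Erythroid and thymic epithelial or stromal genes summed to at most 37 and 290 in any array. The part of other cell types in the results below was not tested.

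2 arrays stood apart from the rest in the respiratory chain genes. The intensities of the 91 genes summed to 74853 in SP2 replicate 2 and to 84103 in SP4 replicate 1, against 121447 to 142867 in the other 10 arrays. Summed intensity averaged 135740 ± 8182 for SP1, 112716 ± 34313 for SP2, 125976 ± 7116 for SP3 and 115050 ± 27332 for SP4 (mean ± SD, n = 3). On the log2 scale, the median difference of the members was -0.95 between SP2 replicate 2 and the mean of the other SP2 arrays and -0.73 between SP4 replicate 1 and the other SP4 arrays, while the median over all genes was -0.01 in each. These arrays were singled out after the values were seen. Calls, medians and the fold changes of named genes of complexes I to IV and the ATP synthase are given with and without both, while the subset orders and the counts without overlap are given with all arrays. The 9 activated or memory T cell genes, such as Cd44 and S100a4, were also lower in these 2 arrays, with median differences of -0.56 and -0.46. They summed to 2231 in SP2 replicate 2, the lowest of the 12 arrays, and to 4368 in SP4 replicate 1, against 6872 and 6105 in the other SP4 arrays. The 9 myeloid and dendritic cell genes summed to 470 in SP2 replicate 2, also the lowest, with median differences of -0.36 and -0.20. Not all lists were lower in both arrays. The cortical double positive genes had median differences of -1.16 and 0.45, and the 19 measured cell cycle genes 0.25 and 0.36. The part of any of these cells or lists in the low values was not tested. In bulk samples, less RNA of a gene per cell and fewer cells that express it cannot be told apart. The study lists quality values for each array, and the part of RNA preparation or array quality in the low values was not tested either.

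**Figure D1:**
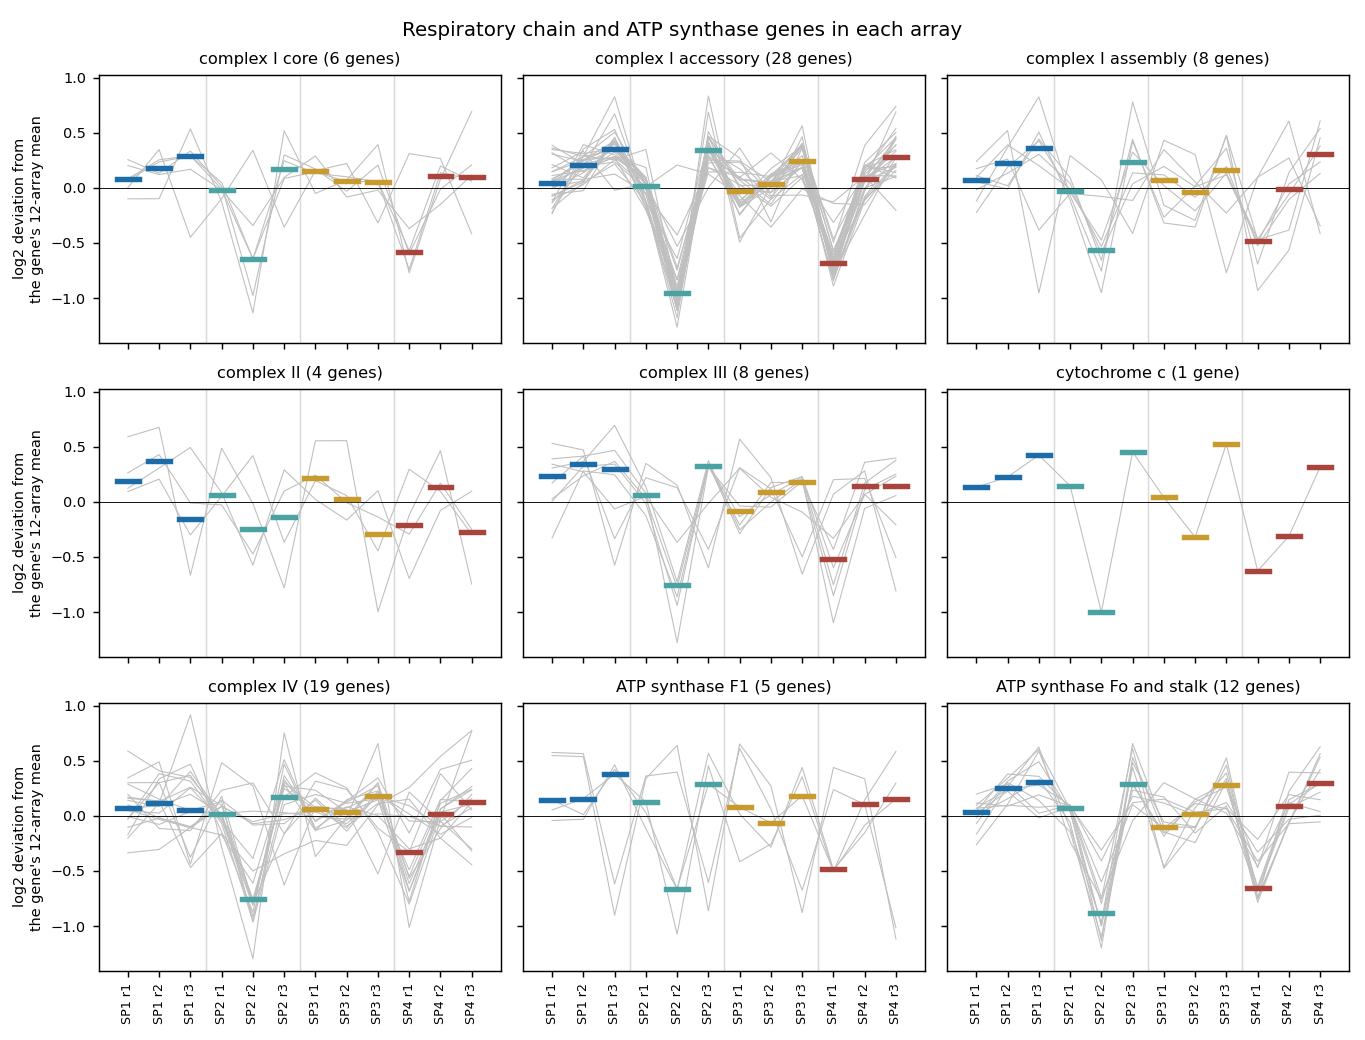
Deviation of each gene from its own mean over the 12 arrays, in log2 units of intensity + 16, in 9 panels by complex. Grey lines join the values of 1 gene, and coloured bars are the median of the panel in each array (r1 to r3, replicates 1 to 3). The medians of SP2 replicate 2 and SP4 replicate 1 lie lowest in every panel but that of complex II.

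The low values in these 2 arrays were shared by most genes but not by all. Lower than the mean of the other arrays of the subset by at least 0.5 (log2) in both arrays were 65 of the 91 genes, which is 71.4%, beside 6.47% of all genes and 13.5% of the genes with a mean over 64. The 0.5 limit was set after the values were seen. Such low values were not particular to these genes. RNA polymerase II subunits, for example, had median differences of -0.78 and -0.63 in the 2 arrays, and further families are given at the end. By complex, these were 25 of 28 accessory, 4 of 6 core and 6 of 8 assembly genes of complex I, 1 of 4 genes of complex II, 5 of 8 of complex III, Cycs, 11 of 19 of complex IV, 3 of 5 of F1 and 9 of 12 of Fo and stalk. The differences of the 2 arrays ran together across the 91 genes (r = 0.945), as they did across all genes (r = 0.747). The 2 arrays come from different subsets, genes are not independent replicates, and the coefficients are descriptions.

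The genes that were not low in these arrays included several catalytic and core subunits. Sdha, the flavoprotein of complex II, was 0.58 higher in SP2 replicate 2 and 0.40 higher in SP4 replicate 1 than the mean of the other arrays of the subset. Ndufs1, the largest subunit of complex I, was 0.57 and 0.39 higher. Atp5a1 and Atp5b, the α and β subunits that form the catalytic head of the ATP synthase, were 0.90 and 0.83 higher (Atp5a1) and 0.52 and 0.69 higher (Atp5b). These sizes rest in large part on replicate 3, the lowest array of each subset for both genes, which is in the mean compared with. Against the remaining array the intensities were closer. Atp5a1 was 4517 against 3663 in SP2 replicate 1 and 3928 against 3657 in SP4 replicate 2. Atp5b was 3602 against 3515 and 3226 against 2937. The complex III core proteins Uqcrc1 and Uqcrc2 were above the mean of the other arrays of the subset, which again includes a low replicate 3. The differences were 0.28 and 0.33 for Uqcrc1 and 0.23 and 0.35 for Uqcrc2. Both genes lay below the remaining array, however. Uqcrc1 was 1379 against 1584 in SP2 replicate 1 and 1303 against 1511 in SP4 replicate 2. Uqcrc2 was 1253 against 1335 and 1318 against 1329. In contrast, Atp5c1, the γ subunit that turns within the α and β head, had differences of -0.89 and -0.56. Cox6b1, a subunit on the cytochrome c side of complex IV, had -1.53 and -1.38.

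**Figure D2:**
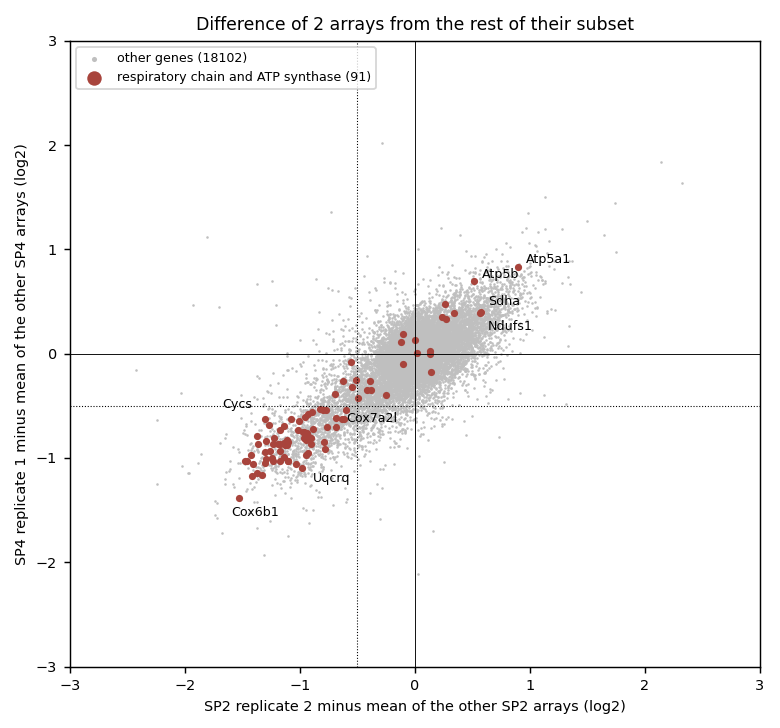
Log2 difference of SP2 replicate 2 from the mean of the other SP2 arrays (x axis) against that of SP4 replicate 1 from the mean of the other SP4 arrays (y axis). Red points are the 91 respiratory chain and ATP synthase genes, grey points all other genes, and dotted lines mark -0.5. Most red points lie in the lower left corner, and Atp5a1, Atp5b, Sdha and Ndufs1 lie in the upper right. Both means include replicate 3, which is low for these named genes.

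A further difference ran between replicate numbers. Other lists moved with it: the median difference of replicate 3 from replicates 1 and 2 was -1.03 for 19 cell cycle genes, -1.21 for the cortical double positive markers and -0.41 for 14 glycolysis genes, and their part was not tested. Replicate 3 was below the mean of replicates 1 and 2 in all 4 subsets for 10 of the 91 genes (Ndufs1, Ndufaf1, Ndufaf7, Sdha, Sdhc, Uqcrc1, Uqcrc2, Cox7c, Atp5a1 and Atp5b), beside 20.3% of all genes. It was above that mean in all 4 subsets for 57 genes, 62.6%, beside 27.3% of all genes. All 10 genes that were low in replicate 3 were above the mean of the other arrays of the subset in both SP2 replicate 2 and SP4 replicate 1. That mean includes replicate 3, so a low replicate 3 raises these differences, and the overlap is no separate observation. Sdhc, for example, was 346 in SP2 replicate 2 against 497 in replicate 1. It was 321 in SP4 replicate 1 against 489 in replicate 2. Atp5a1 showed the low replicate 3 most clearly, with intensities of 4236, 4208 and 1541 for SP1, 3663, 4517 and 1586 for SP2, 4558, 3496 and 1567 for SP3 and 3928, 3657 and 1325 for SP4 for replicates 1, 2 and 3. Replicate 3 was the lowest array of every subset for this gene, with a mean difference of -1.41 on the log2 scale.

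Different probe sets of a gene did not always show these differences alike. Of 44 genes with more than 1 probe set over 64, 11 had probe sets whose difference in SP2 replicate 2 was unequal by over 0.5. For Uqcrc2, the probe set used here differed by 0.23 in SP2 replicate 2 and another of the same gene by -0.75. For Atp5a1, the probe set used here differed by -1.41 in replicate 3 and another by -0.36. For Ndufv1, 2 probe sets differed by -0.38 and -0.30 in SP2 replicate 2, while another differed by 0.22. For Sdha, the probe set used here and another bright one differed by 0.58 and 0.43 in that array. A dimmer Sdha probe set, with a mean of 71.9, went the other way, by -0.63 in SP2 replicate 2 and -0.57 in SP4 replicate 1. For Cycs, in contrast, the 3 probe sets over 64 differed by -1.30, -0.98 and -0.95 in that array.

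The promoters of the members were searched for 3 short motifs known from respiratory chain genes. These were GCGCATGC, the core of the site of NRF1, CCGGAAG, bound by ETS factors such as GABP, and AAGATGGCG, bound by YY1. NRF1 and GABP are activators of many nuclear genes of mitochondrial proteins. The RefSeq promoter table (GRCm38.p6; 250 bases before to 50 after each start) held 80 promoters of 75 members, and both strands were searched for exact matches. GCGCATGC was in 12 of the 80 promoters (15%) and in 2.71% of all 32851 promoters of the table. CCGGAAG was in 19 (23.8%) and in 8.86% of all promoters, and AAGATGGCG in 7 (8.75%) and in 1.4% of all. At least 1 of them was in 31 of the 80 (38.8%) and in 12.1% of all promoters. Of the members that were low in both arrays above, 27 of 58 with a promoter held a match, and of the others 4 of 17. This division was made after the values were seen, and a link of the motifs to the low values was not tested. A match is a description of the sequence and not a binding site, and windows without a match say nothing of the factor.

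4 promoters are shown, 5′ to 3′ on the strand of the gene and in lower case with motif matches in capitals, to set genes with matches beside 1 without. Sdhb (chr4:140961021-140961320, plus strand) holds the NRF1 core before the start on the opposite strand and the ETS motif just after the start, and Uqcr11 (chr10:80406772-80407071, minus strand) holds the ETS motif and then the NRF1 core, which is also on the opposite strand. Cycs (chr6:50566520-50566819, minus strand) holds the NRF1 core alone, again on the strand opposite to that of the gene. Cox7a2l (chr17:83514284-83514583, minus strand) holds none of the 3.
Sdhb: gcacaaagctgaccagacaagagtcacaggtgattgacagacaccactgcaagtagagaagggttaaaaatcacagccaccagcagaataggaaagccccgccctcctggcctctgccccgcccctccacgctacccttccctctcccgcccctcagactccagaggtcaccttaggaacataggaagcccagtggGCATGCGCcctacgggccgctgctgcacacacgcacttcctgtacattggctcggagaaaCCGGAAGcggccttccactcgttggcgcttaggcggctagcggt
Uqcr11: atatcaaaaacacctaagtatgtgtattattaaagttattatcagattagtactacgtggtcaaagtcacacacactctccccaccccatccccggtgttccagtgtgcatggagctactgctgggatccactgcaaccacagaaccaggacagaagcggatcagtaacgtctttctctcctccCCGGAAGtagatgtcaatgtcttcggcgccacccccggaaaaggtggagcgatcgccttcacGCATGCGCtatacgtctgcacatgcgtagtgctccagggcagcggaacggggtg
Cycs: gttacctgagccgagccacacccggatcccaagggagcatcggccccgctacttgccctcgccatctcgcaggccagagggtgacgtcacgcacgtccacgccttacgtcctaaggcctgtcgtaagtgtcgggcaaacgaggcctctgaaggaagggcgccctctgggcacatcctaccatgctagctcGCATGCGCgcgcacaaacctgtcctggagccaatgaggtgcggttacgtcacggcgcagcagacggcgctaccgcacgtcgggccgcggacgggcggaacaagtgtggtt
Cox7a2l: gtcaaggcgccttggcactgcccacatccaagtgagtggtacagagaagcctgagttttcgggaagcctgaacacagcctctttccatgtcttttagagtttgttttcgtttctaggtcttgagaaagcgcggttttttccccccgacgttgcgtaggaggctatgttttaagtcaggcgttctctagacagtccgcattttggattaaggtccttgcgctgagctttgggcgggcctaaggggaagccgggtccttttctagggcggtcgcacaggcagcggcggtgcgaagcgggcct

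In the comparisons between subsets, the question was whether respiratory chain genes change as CD4 SP thymocytes mature. None of the 91 genes was called in any of the 6 comparisons by limma at an adjusted p under 0.05. Among all genes, the calls were 0% for SP2 against SP1 and 0% for SP3 against SP2, 0.225% for SP4 against SP3, 0.011% for SP3 against SP1, 0.77% for SP4 against SP2 and 1.52% for SP4 against SP1. At an unadjusted p under 0.05 there were 1, 0, 1, 0, 1 and 4 members in the same order, at most 4.4% of them, beside 3.04%, 3.38%, 5.34%, 3.26%, 7.47% and 8.94% of all genes. With the replicate number as a block, 1 member was called, Cox6a2 in SP4 against SP2. Calls among all genes were then 0.0055%, 0.28%, 1.48%, 0.451%, 3.39% and 6.04% in that order.

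The median log2 fold change of the members turned on the 2 arrays. It was -0.36 for SP2 against SP1, 0.21 for SP3 against SP2, -0.15 for SP4 against SP3, -0.11 for SP3 against SP1, 0.03 for SP4 against SP2 and -0.27 for SP4 against SP1. Medians of all genes lay between -0.02 and 0.01. Without SP2 replicate 2 and SP4 replicate 1, the member medians were -0.04, -0.05, 0.05, -0.11, -0.01 and -0.06 in the same order. With the block as well, they were -0.06, -0.05, 0.01, -0.11, -0.04 and -0.12, and 26.4% of the members had an unadjusted p under 0.05 for SP4 against SP1, beside 19% of all genes. For SP4 against SP1 without the block, 9 members were above 0 with all arrays and 31 without the 2. Among all genes these shares were 45% and 46.7%. Only the fold changes of SP3 against SP1 use neither array, while the spread in the fit with all arrays does. In SP3, 14 of the 91 genes were higher than in SP1, beside 52.8% of all genes, and 77 were lower. With the block and without the 2 arrays, 22% of the members had an unadjusted p under 0.05 for SP3 against SP1, beside 12.4% of all genes. Of these members, 19 were lower and 1 was higher. Comparisons that share a subset share its arrays.

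**Figure D3:**
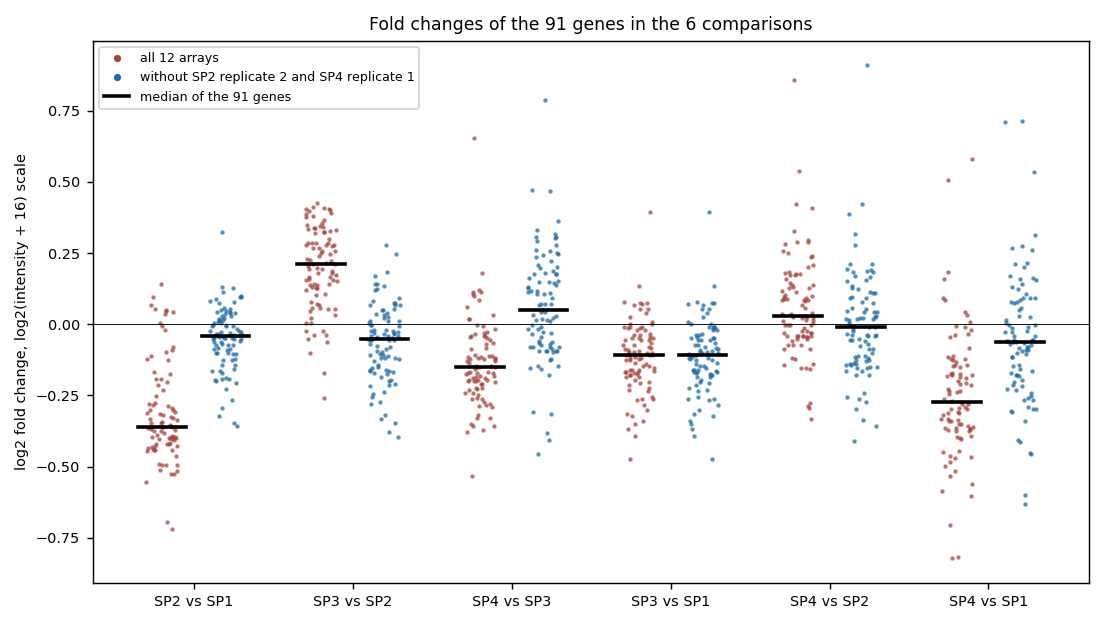
Log2 fold changes of the 91 genes in the 6 comparisons, on the log2(intensity + 16) scale, with all 12 arrays (red) and without SP2 replicate 2 and SP4 replicate 1 (blue). Black bars are medians, which move from -0.36 to -0.04 for SP2 against SP1 and from -0.27 to -0.06 for SP4 against SP1.

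Leaving out the 2 arrays also changed the standard errors. The arrays were chosen for their low member values, so a smaller spread of the members without them follows from that choice. The p-values of the fits without them do not allow for it. The median standard error of the SP4 against SP1 fold change over the 84 brighter members was 0.32 with all arrays and 0.20 without the 2, while over all 8419 genes with a mean over 64 it was 0.22 in both. With the block as well, it was 0.23 with all arrays and 0.10 without the 2. Without them and without the block, no member was called in any comparison, beside 0.852% of all genes for SP4 against SP1, and 6 members (6.59%) had an unadjusted p under 0.05 there, beside 8.41% of all genes. With the block, 3 members were called for SP4 against SP1 (beside 6.65% of all genes) and 2 for SP3 against SP1 (beside 1.48%): Cox7a2l and Uqcrq in both and Ndufa6 in SP4 against SP1. 3 of 91 is under and 2 of 91 is close to the share among all genes. Replicate numbers were taken to pair the arrays across subsets, as described with the processing.

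By order of the subset means of log2(intensity + 16), SP1 was the highest subset for 73 of the 91 genes. SP2 was the lowest for 51 and SP4 for 33. 40 genes followed the order SP1, SP3, SP4, SP2 and 25 the order SP1, SP3, SP2, SP4. In both orders the subsets that hold an array standing apart came last. No difference between neighbours in these orders passed the threshold with all 12 arrays and no block. This log2 mean was lower at every step from SP1 to SP4 in 4 genes (Ndufaf4, Cox7a1, Atp5a1 and Atp5b) and was higher at every step in 2 (Ndufaf1 and Cox7a2l), with no step called.

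Without overlap between the 3 SP4 and the 3 SP1 arrays, 12 members were lower in SP4 (Ndufv1, Ndufa12, Ndufb2, Ndufb6, Ndufc2, Sdhb, Uqcrq, Uqcr11, Cox5a, Cox6b2, Atp5g3 and Atp5pb), beside 6.89% of all genes. Only Cox6a2 was higher in this way, beside 7.34% of all genes. None of these passed the adjusted threshold with all 12 arrays.

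Complex I takes electrons from NADH. Its 6 core genes had SP4 against SP1 log2 fold changes between -0.38 and 0.09, with a median of -0.31 (-0.09 without the 2 arrays) and a lowest adjusted p of 0.849. Ndufv1, which carries the NADH binding site, had intensities of 846, 799 and 827 for SP1, 723, 575 and 785 for SP2, 900.3, 692 and 723 for SP3 and 564, 659.7 and 796 for SP4 (replicates 1, 2 and 3 in each list of 3 values). All SP4 values lay below the SP1 values, and the fold change was -0.30 ± 0.18 (adjusted p = 0.849), or -0.18 without the 2 arrays. Ndufs8 and Ndufv2, iron-sulfur subunits, had fold changes of -0.38 ± 0.30 (adjusted p = 0.955) and -0.37 ± 0.26 (adjusted p = 0.911), which became -0.14 and -0.09 without the 2 arrays. Ndufs1 had intensities of 559, 714 and 405 in SP1 and 696, 674 and 414 in SP4, which overlapped, and a fold change of 0.09 ± 0.28 (adjusted p = 1), or -0.04 without the 2 arrays.

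The 28 accessory genes of complex I, which surround and stabilise its core, had a median fold change of -0.29, and of -0.03 without the 2 arrays. With all arrays, the values of 27 of them were below 0 and that of Ndufa6 was above, while 45% of all genes were above 0. Ndufab1, the mitochondrial acyl carrier protein, and Ndufb6 had the lowest values, -0.56 ± 0.37 (adjusted p = 0.894) and -0.60 ± 0.33 (adjusted p = 0.774), which became -0.30 and -0.29 without the 2 arrays. The Ndufb6 intensities were 1470, 1433 and 1479 for SP1, 1223, 585 and 1462 for SP2, 1300, 1083 and 1359 for SP3 and 614, 1064 and 1331 for SP4. SP4 replicate 1 was the lowest SP4 array, and the other SP4 arrays were still below all SP1 arrays. Within replicates 1, 2 and 3, SP4 minus SP1 was -1.24, -0.42 and -0.15 on the log2 scale. Among the 8 assembly genes, whose products help to build complex I and leave it, the lowest values were those of Ndufaf2, -0.71 ± 0.43 (adjusted p = 0.851), and Ndufaf6, -0.40 ± 0.21 (adjusted p = 0.771). Without the 2 arrays they were -0.41 and -0.22. With the block, the adjusted p of Ndufaf2 was 0.0689.

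Ndufa6, an accessory subunit of the LYR protein family, is named here because of its call without the 2 arrays, after its values were seen. Its intensities were 733, 863 and 973 for SP1, 762, 338 and 1112 for SP2, 738, 871 and 1107 for SP3 and 588, 1094 and 1406 for SP4. Within replicates 1, 2 and 3, SP4 minus SP1 was -0.31, 0.34 and 0.52 on the log2 scale. The fold change was 0.18 ± 0.40 (adjusted p = 1) with all arrays and 0.54 ± 0.24 (adjusted p = 0.673) without the 2 arrays. With the block and without the 2 arrays it was 0.41 ± 0.09 (adjusted p = 0.022), past the threshold.

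Complex II is also the succinate dehydrogenase of the TCA cycle. By the median difference from the other arrays of the subset, the 2 arrays stood out least in it, with -0.19 in SP2 replicate 2 and -0.12 in SP4 replicate 1. The mean compared with includes replicate 3, which was low in every subset for Sdha and Sdhc and so raises these differences. Sdhc was 346 in SP2 replicate 2 against 497 in SP2 replicate 1, and 321 in SP4 replicate 1 against 489 in SP4 replicate 2. Sdhb, the iron-sulfur subunit of complex II, had intensities of 1790, 2036 and 2319 for SP1, 1740, 1098 and 2013 for SP2, 1669, 1463 and 1763 for SP3 and 1009, 1556 and 1757 for SP4. SP4 minus SP1 was -0.82, -0.38 and -0.40 within replicates 1, 2 and 3, and SP4 and SP1 did not overlap. The fold change was -0.53 ± 0.25 (adjusted p = 0.655), with an adjusted p of 0.159 with the block, and -0.30 ± 0.15 (adjusted p = 0.769) without the 2 arrays. Sdha, by contrast, had intensities of 1095, 1186 and 830.1 in SP1 and 1263, 1096 and 834 in SP4, which overlapped, and a fold change of 0.03 ± 0.25 (adjusted p = 1), or -0.10 without the 2 arrays. Sdhd, a membrane anchor, had a fold change of -0.35 ± 0.21 (adjusted p = 0.837), or -0.27 without them.

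Complex III passes electrons from ubiquinol to cytochrome c. Its 8 genes had a median SP4 against SP1 fold change of -0.30, and of -0.24 without the 2 arrays. Uqcrq, a small subunit that helps to form the quinone binding region, had intensities of 1583, 1649 and 2075 for SP1, 1405, 766 and 1659 for SP2, 1069, 1274 and 1475 for SP3 and 588, 1225 and 1328 for SP4. Every SP3 and SP4 value was below every SP1 value. SP4 minus SP1 was -1.40, -0.42 and -0.64 within replicates 1, 2 and 3. The fold change was -0.82 ± 0.33 (adjusted p = 0.51) with all arrays, an adjusted p of 0.0872 with the block, and -0.46 ± 0.18 (adjusted p = 0.59) without the 2 arrays. With the block and without the 2 arrays it was -0.54 ± 0.09 (adjusted p = 0.00505) for SP4 against SP1 and -0.47 ± 0.08 (adjusted p = 0.0174) for SP3 against SP1. SP4 replicate 1 is the library that moved this value most, from -0.82 to -0.46 when it was left out. The other probe sets of Uqcrq were dim, with means of 18.3 to 61.3, and gave fold changes of -0.13 to -0.17.

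Uqcr11, the smallest subunit of complex III, had intensities of 693, 705 and 732 for SP1, 555, 207 and 658 for SP2, 511, 508 and 599.6 for SP3 and 284, 568 and 628 for SP4. The SP1 arrays were close together and above all others, and the fold change of SP4 against SP1 was -0.59 ± 0.38 (adjusted p = 0.881), or -0.24 without the 2 arrays. Uqcrc1 had intensities of 1798, 1725 and 827 in SP1 and 1303, 1511 and 701 in SP4 and a fold change of -0.29 ± 0.41 (adjusted p = 1). In this gene replicate 3 was the lowest array of every subset, and the fold change was -0.41 without the 2 arrays and 0.03 without SP4 replicate 3. Uqcrfs1, the Rieske iron-sulfur protein, had a fold change of -0.34 ± 0.19 (adjusted p = 0.786), or -0.25 without the 2 arrays.

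Cycs encodes cytochrome c, which carries electrons and, when released from mitochondria, also activates caspases in apoptosis. Its intensities were 1784, 1904 and 2187 for SP1, 1801, 805 and 2231 for SP2, 1672, 1300 and 2348 for SP3 and 1048, 1308 and 2029 for SP4. SP2 replicate 2 was the lowest of the 12 arrays, and the subsets overlapped. The fold change of SP4 against SP1 was -0.47 ± 0.36 (adjusted p = 0.947), or -0.26 without the 2 arrays, and its 3 probe sets over 64 gave -0.47, -0.46 and -0.40.

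Complex IV reduces oxygen to water. Its ubiquitous subunits Cox4i1, Cox5a and Cox5b, which surround the mitochondrially encoded core, had fold changes of SP4 against SP1 of -0.18 ± 0.25 (adjusted p = 1), -0.37 ± 0.27 (adjusted p = 0.933) and -0.23 ± 0.27 (adjusted p = 1). The Cox4i1 intensities were 3171, 3221 and 3463 for SP1, 3058, 1784 and 3593 for SP2, 3150, 3177 and 3474 for SP3 and 2061, 3271 and 3574 for SP4. Apart from SP2 replicate 2 and SP4 replicate 1, all its arrays lay between 3058 and 3593, and without these 2 arrays the fold change was 0.06 ± 0.11. Cox5a and Cox5b were then -0.12 and -0.03.

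Several complex IV subunits have isoforms that differ between tissues. The common isoforms Cox6a1, Cox6b1, Cox7a2 and Cox8a all had means over 64, and their SP4 against SP1 fold changes were -0.37 ± 0.26 (adjusted p = 0.914), -0.37 ± 0.54 (adjusted p = 1), -0.34 ± 0.32 (adjusted p = 0.987) and -0.04 ± 0.28 (adjusted p = 1). Without SP2 replicate 2 and SP4 replicate 1 they were -0.17, 0.09, -0.06 and 0.14, so that Cox6b1 and Cox8a turned sign. The muscle isoforms Cox7a1 and Cox8b and the lung isoform Cox4i2 had mean intensities of 15.7, 19.1 and 27.7, at or under the limit of 64. Their fold changes were -0.23 ± 0.19 (adjusted p = 0.956), 0.09 ± 0.09 (adjusted p = 1) and -0.01 ± 0.10 (adjusted p = 1), or -0.15, 0.12 and -0.07 without the 2 arrays. Cox8c, a testis isoform, had a mean of 129 and a fold change of -0.15 ± 0.19 (adjusted p = 1), or -0.30 without the 2 arrays. Ndufa4, once assigned to complex I and now known as a complex IV subunit, had a fold change of -0.28 ± 0.36 (adjusted p = 1), which turned to 0.07 without the 2 arrays. Its relative Ndufa4l2, known as a hypoxia-induced gene, had a mean of 44.8 and a fold change of -0.05 ± 0.13 (adjusted p = 1), or -0.08 without them.

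Cox6a2, the heart and skeletal muscle isoform of subunit VIa, was dim, with intensities of 55.1, 54.0 and 30.0 for SP1, 41.0, 29.0 and 34.2 for SP2, 38.6, 36.9 and 52.3 for SP3 and 60.2, 76.6 and 93.0 for SP4. All SP4 values lay above those of every other subset. SP4 against SP2 differed by 0.86 ± 0.20 (adjusted p = 0.124), which became 0.86 ± 0.19 (adjusted p = 0.0303) with the block. Without SP2 replicate 2 and SP4 replicate 1 it was 0.91 ± 0.24 (adjusted p = 0.437), and with the block as well 0.96 ± 0.23 (adjusted p = 0.0835). Without SP1 replicate 3 the adjusted p was 0.0472, and over single changes of the processing it ranged from 0.0303 to 0.468. With an offset of 1 or 64 in place of 16 it was 1.11 or 0.50. SP4 against SP1 was 0.58 ± 0.20 (adjusted p = 0.34), 0.72 without the 2 arrays and 0.38 without SP1 replicate 3. A second, dimmer Cox6a2 probe set with a mean of 13.1 differed by 0.41 for SP4 against SP2 (adjusted p = 0.0484 with the block). The NKT and innate-like T cell genes, which summed to 1684 to 2520 in SP4 and to at most 531 elsewhere, moved with this gene. The activated or memory T cell genes summed to 4368 to 6872 in SP4 and to at most 5043 elsewhere. The part of either list in this value was not tested.

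Cox6b2, the testis isoform of subunit VIb, had its lowest mean in SP4. Its intensities were 101, 87.0 and 82.8 for SP1, 62.0, 25.1 and 71.5 for SP2, 85.7, 76.6 and 54.1 for SP3 and 28.6, 62.6 and 46.2 for SP4. All SP4 values were below all SP1 values, and the fold change was -0.82 ± 0.28 (adjusted p = 0.36), with an adjusted p of 0.116 with the block. Without the 2 arrays it was -0.60 ± 0.20 (adjusted p = 0.415). Its mean intensity of 65.3 is near the limit of 64.

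Cox7a2l, known as a factor that joins complexes III and IV into supercomplexes, had its highest mean in SP4, followed by SP3, SP2 and SP1, while SP1 was highest for most members. Its intensities were 1421, 1452 and 1669 for SP1, 1591, 1171 and 2259 for SP2, 1743, 1975 and 2287 for SP3 and 1612, 2413 and 2557 for SP4. All SP3 values lay above all SP1 values, and SP4 was above SP1 in all 3 replicate numbers, by 0.18, 0.73 and 0.61 on the log2 scale. SP4 replicate 1 overlapped the SP1 arrays. The fold change was 0.51 ± 0.24 (adjusted p = 0.68) with all arrays, an adjusted p of 0.131 with the block, and 0.71 ± 0.18 (adjusted p = 0.188) without the 2 arrays. With the block and without the 2 arrays it was 0.62 ± 0.09 (adjusted p = 0.0017) for SP4 against SP1 and 0.39 ± 0.08 (adjusted p = 0.037) for SP3 against SP1. Its 3 probe sets gave SP4 against SP1 fold changes of 0.51, 0.38 and 0.41. The NKT and innate-like genes were highest in the same subset, and the median of the activated or memory genes was also above 0 there, and the part of either in this value was not tested.

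**Figure D4:**
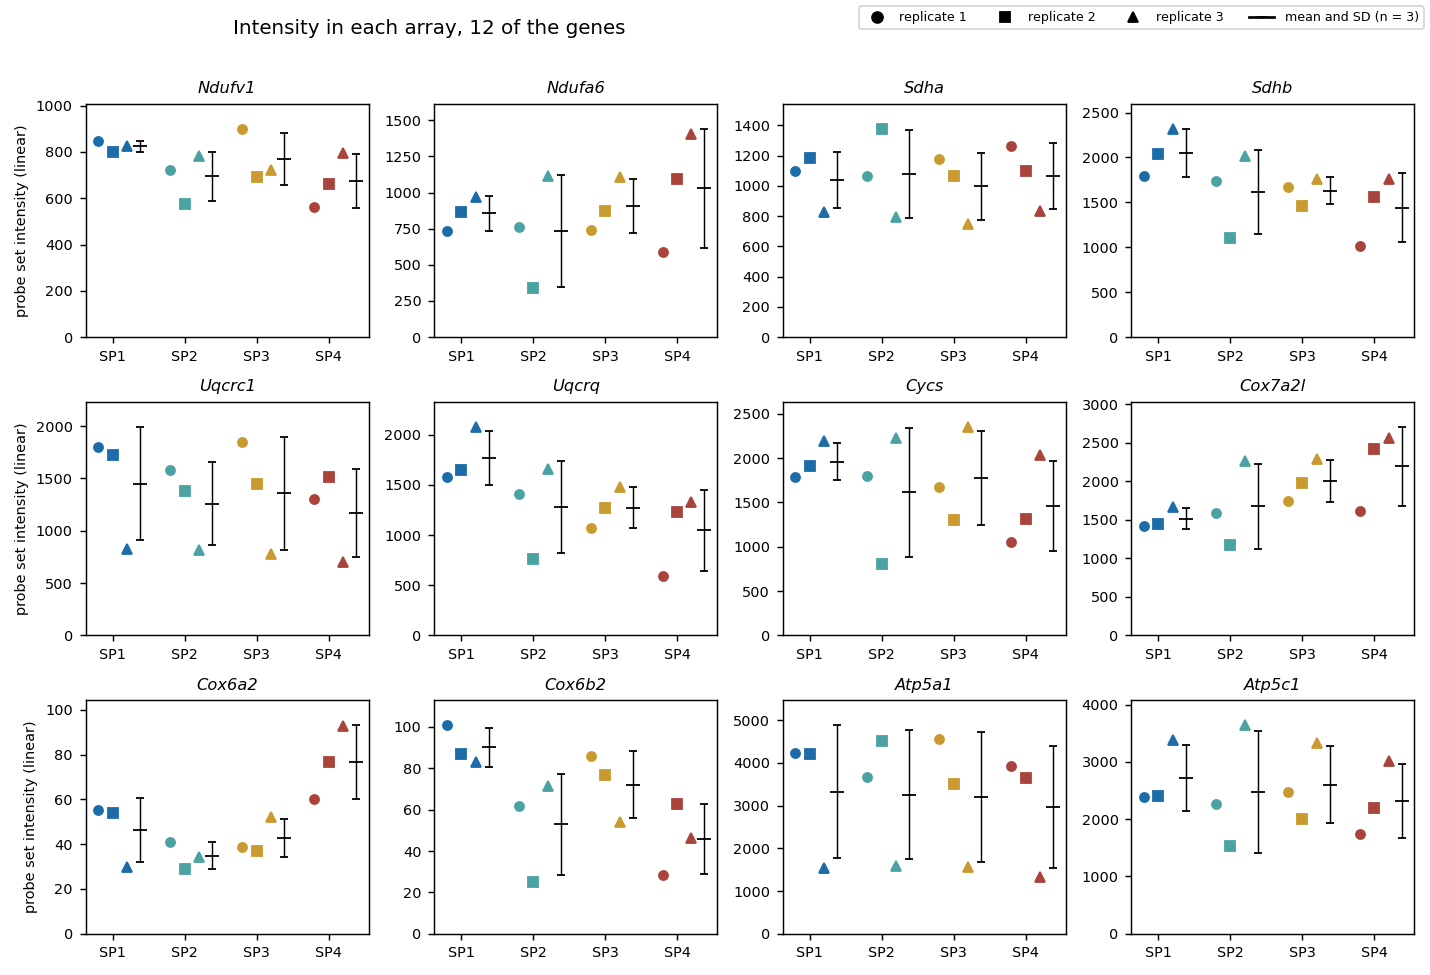
Probe set intensity on a linear scale for 12 of the genes in SP1 to SP4, with a symbol for each replicate number and the mean with its SD (n = 3). The means of Uqcrq and Sdhb are lower and those of Cox7a2l and Cox6a2 higher in SP4 than in SP1, and Uqcrc1 and Atp5a1 are lowest in replicate 3 of every subset.

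With all arrays, the ATP synthase genes were all below 0 in SP4 against SP1, while 45% of all genes were above 0. The median was -0.24 for the 5 genes of F1 and -0.27 for the 12 of Fo and stalk, and none passed the threshold. Without the 2 arrays the medians were -0.16 and -0.04. Atp5b had intensities of 4079, 4048 and 1776 for SP1, 3515, 3602 and 1792 for SP2, 4181, 2854 and 1707 for SP3 and 3226, 2937 and 1343 for SP4. SP4 was below SP1 in all 3 replicate numbers with differences of -0.34, -0.46 and -0.40 on the log2 scale, while replicate 3 was the lowest array of every subset. The fold change was -0.40 ± 0.45 (adjusted p = 1), and with the block its standard error was 0.13 and its adjusted p 0.115. Without the 2 arrays it was -0.63, and without SP4 replicate 3 the fold change was -0.0034 for Atp5b and 0.33 for Atp5a1. Atp5a1, Atp5c1 and Atp5d, the δ subunit of the central stalk, had fold changes of -0.18 ± 0.57 (adjusted p = 1), -0.24 ± 0.31 (adjusted p = 1) and -0.34 ± 0.24 (adjusted p = 0.931), or -0.45, -0.06 and -0.16 without the 2 arrays. Atp5g1, 1 of the genes for the rotating c ring, and Atp5o, the subunit that links F1 to the outer stalk, had -0.49 ± 0.40 (adjusted p = 0.964) and -0.39 ± 0.29 (adjusted p = 0.936), which became -0.16 and -0.12 without them.

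Other genes of mitochondrial metabolism were read in the same arrays. The 76 genes of the mitochondrial ribosome, which translates the mitochondrially encoded subunits, had median differences of -0.84 in SP2 replicate 2 and -0.75 in SP4 replicate 1, close to those of the respiratory chain genes. The 34 measured assembly factors and cytochromes with other names, such as Cox17, Surf1 and Cyc1, had -0.57 and -0.45. The 18 measured genes of the TCA cycle and pyruvate entry had 0.06 and 0.01, and the 22 regulators of mitochondrial biogenesis, among them Nrf1, Gabpa and Tfam, likewise had 0.06 and 0.01. Of the 13 mitochondrially encoded subunits, ND5 alone had a probe set named for it, with differences of -0.45 and 0.09. These differences between lists were not tested.

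No gene of the mitochondrial ribosome, the assembly factors, the TCA cycle, the biogenesis regulators, the carriers or coenzyme Q synthesis was called in SP4 against SP1 with all arrays and no block, beside 1.52% of all genes. Their medians were -0.26, -0.11, -0.08, -0.01, -0.23 and -0.09. With the block, Pdk1, a kinase that inhibits pyruvate dehydrogenase, was called higher (0.58; adjusted p = 0.257 without and 0.039 with the block), and Coq4, a coenzyme Q synthesis gene, was called lower (-0.46; adjusted p = 0.27 without and 0.0485 with the block). Among all genes, 6.04% were called with the block. Of 14 measured genes of glycolysis, Ldhb, a subunit of lactate dehydrogenase, was called lower without the block. Its intensities were 759, 1122 and 1223 for SP1, 680, 658 and 939 for SP2, 757, 892 and 792 for SP3 and 270.5, 462 and 484 for SP4, and the fold change was -1.33 ± 0.25 (adjusted p = 0.029). All SP4 values lay below all others. With the block, Hk2 (-0.54; adjusted p = 0.58 without and 0.0367 with it) and Pkm (-0.42; adjusted p = 0.934 without and 0.0428 with it), a hexokinase and the pyruvate kinase of most tissues, were also called lower.

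**Figure D5:**
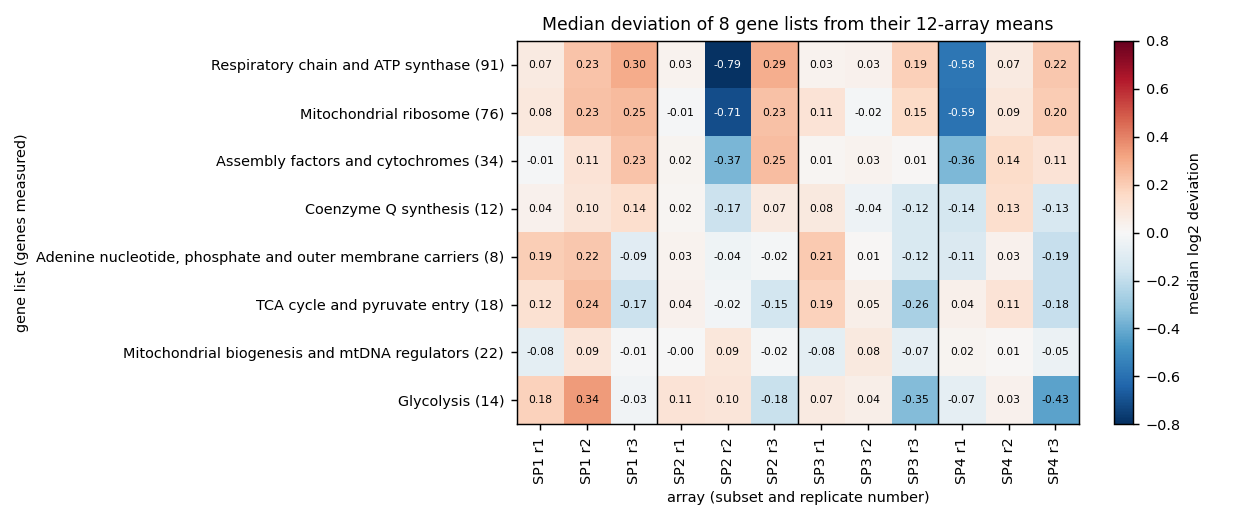
Median log2 deviation of 8 gene lists from each gene's 12-array mean, by array (r1 to r3, replicates 1 to 3), with the number of measured genes in brackets. The respiratory chain genes and the mitochondrial ribosome are lowest in SP2 replicate 2 (-0.79 and -0.71) and SP4 replicate 1 (-0.58 and -0.59), while the TCA cycle and biogenesis lists stay within 0.1 of 0 in these 2 arrays.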

How the data were processed

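RNA of the 12 samples was read on Affymetrix 430 2.0 mouse arrays. The deposited values are intensity per probe set on a linear scale, corrected and scaled between arrays by the authors. The study's methods name RMA in R and the submitters' notes MAS5, and no version of either is given in the sources used here. Array medians were 30.5 to 32.8. Of 45037 probe sets, the platform annotation gives 34945 a single gene, 932 several and 9160 none. Each gene was read from its brightest probe set.

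From these values log2(intensity + 16) was fitted with 1 mean per subset in limma 3.58.1 (R 4.3.3; lmFit and eBayes with trend, 8 residual degrees of freedom, 6 with the replicate block). P-values were adjusted by Benjamini-Hochberg over all probe sets in each of the 6 comparisons, and a gene was called at an adjusted p under 0.05. The study's methods name SAM, which was not run. Values after ± are standard errors of a fold change unless marked SD. The fit was tested on simulated data. The labels number biological replicates 1 to 3 in each subset. Over all genes, deviations of same-numbered arrays correlated in all 18 pairs, by 0.279 to 0.883. Over the members alone, the correlations of these pairs ranged from 0.0638 to 0.939. From the correlations over all genes the numbers were taken to pair the arrays, and the fit with the number as a block was an alternative. The study's figure legends show the arrays as 3 repeats, each with 1 code for its 4 subsets. Which replicate number each code has is not stated.

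The members and lists were chosen with earlier results of these data known. Named were members called with or without the block, the 2 of largest SP4 against SP1 change in each complex, core subunits and tissue isoforms. Exceptions named after their values were seen are Ndufa6, and the genes used to describe the 2 arrays, the replicates and the probe sets. Alternatives were offsets of 1 and 64, quantile normalization, median centring, a filter at 64, only the 2 subsets compared, other probe set rules, the block and leaving out each array. Leaving out SP2 replicate 2 and SP4 replicate 1 together was added after the data were seen, and the p-values without them do not allow for that choice. Precision is limited by having only 3 arrays for each subset.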

Additional observations from a re-analysis of the deposited data

How the results depend on the processing

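No respiratory chain or ATP synthase gene was called with all 12 arrays and no block, and this count of 0 held in all 6 comparisons under other offsets, scalings, filters and probe set rules. With the replicate block, which pairs same-numbered arrays, 1 member was called in SP4 against SP2, and without SP1 replicate 3 also 1 (adjusted p = 0.0472), so that the count ranged from 0 to 1 when single arrays were left out. The gene was Cox6a2 in both. With SP2 replicate 2 and SP4 replicate 1 both left out and the block, 2 members were called in SP3 against SP1 and 3 in SP4 against SP1. The block changed no other call among the members. When single arrays were left out, the member median ranged from -0.58 to -0.04 for SP2 against SP1, from -0.05 to 0.47 for SP3 against SP2, from -0.33 to 0.05 for SP4 against SP3, from -0.17 to -0.08 for SP3 against SP1, from -0.21 to 0.29 for SP4 against SP2 and from -0.42 to -0.06 for SP4 against SP1. The sign of 3 of these medians thus depended on single arrays, among them SP2 replicate 2 and SP4 replicate 1. Of the values of 38 named genes under 23 alternatives, 897 kept their direction and side of the threshold, 34 changed sign with no call on either side, and 6 were newly called. 7 genes lay at or under an intensity of 64, where differences depend on the offset: Cox6a2 in SP4 against SP2 was 1.11 with an offset of 1 and 0.50 with 64.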

Other observations

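Other gene families were read in SP2 replicate 2 and SP4 replicate 1 after the low respiratory chain values had been seen. Over genes with a mean intensity over 64, the median log2 differences from the other arrays of the subset were -0.78 and -0.63 for 11 RNA polymerase II subunits (Polr2) and -0.79 and -0.56 for 20 Sm and Lsm proteins, which bind small nuclear RNAs. For 38 proteasome subunits they were -0.48 and -0.36, and for 45 cytosolic ribosomal proteins -0.30 and -0.16. For 165 zinc finger proteins (Zfp) they were 0.15 and -0.03. Lower by at least 0.5 in both arrays were 8 of the RNA polymerase II, 12 of the Sm and Lsm, 13 of the proteasome, 9 of the ribosomal protein and 8 of the zinc finger genes. These counts stand beside 13.5% of all genes with a mean over 64 and 71.4% of the respiratory chain and ATP synthase genes.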
